A study of Bos taurus with 35 samples.

Results

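The 38 genes described here are the microRNA (miRNA), small nuclear RNA (snRNA) and other small non-coding RNA genes that the study had listed as differentially expressed (DE) in beef muscle post-mortem, out of 27607 genes in the count table. They were chosen by their annotated biotype and by their measured change between 0 h and a later time point, so every fold change against 0 h below is a description of genes selected on that measure and supports nothing by itself. Of the 38, 21 were annotated as miRNA, 10 as misc_RNA (among them 7SK and signal recognition particle RNA), 4 as snRNA, and 1 each as ribozyme, scaRNA (small Cajal body RNA) and sRNA. A symbol was given for 28 of them and the other 10 are called by their identifier. The copy of the list at hand lacked 257 rows of genes lower at 72 h, so genes of these biotypes that were DE only there may be absent from the 38.

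RNA was sequenced from longissimus thoracis (LT) muscle, labelled thoracis et lumborum, of 7 British × Continental crossbred heifers, the same 7 carcasses being cored within 1 h of slaughter (0 h) and again at 6, 24, 48 and 72 h while hanging in a drip cooler, which gave 35 libraries and 7 animals per time point. The animals weighed 525 to 635 kg. No agent was applied, and time in the cooler was the only condition; every time point was compared with 0 h within animals. The cores were whole tissue, so fewer cells of a type and less RNA per cell cannot be told apart.

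MicroRNAs are cut from longer primary transcripts, first in the nucleus by DROSHA and then in the cytoplasm by DICER1, and guide Argonaute (AGO) proteins to mRNAs; many lie inside protein-coding genes or in clusters that share a primary transcript. The snRNAs U4 and U6 are parts of the spliceosome, scaRNAs guide the modification of snRNAs, 7SK holds the elongation factor P-TEFb inactive, signal recognition particle RNA brings ribosomes to the endoplasmic reticulum, and the RNA of RNase P is a catalyst that trims tRNA precursors. MIR1-2, bta-mir-133a-1 and MIR208B are known as muscle miRNAs. The libraries were made for mRNA, and the trimmed reads that were kept were all longer than a mature miRNA. The counts at a miRNA gene are therefore reads of longer RNA over that locus and not of the mature form. How far the counts at the snRNA and other small RNA genes follow the levels of those RNAs in libraries made for mRNA was not tested.

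Library totals ran from 20568418 to 104275821 counts with a median of 40133660, and no pair of libraries held identical counts. The muscle genes CKM, creatine kinase, and TNNT3, a fast-fibre troponin, stood at 12390 ± 1079 and 11510 ± 934 CPM at 0 h (SD, n = 7), where CPM are counts scaled to 1000000 reads after TMM scaling of the library totals. Cell type markers, these 2 included, had an identifier here only through the list of DE genes. Those with values were therefore chosen for a change with time, and their changes are descriptions. Other listed markers were not analysed, among them all 3 endothelial and all 3 fibroblast markers. The summed CPM of the 5 adipocyte markers ADIPOQ, LEP, PLIN1, FABP4 and CIDEC ranged from 27.0 to 254 at 0 h, from 18.5 to 412 at 6 h and from 4.80 to 13.9 at 24 h, and from then on 2, 4 and 2 of the 35 single values were at 0 at 24, 48 and 72 h. The haemoglobin genes HBB and HBA summed to between 0.0520 and 3.59 CPM at 0 h and to between 0.126 and 72.2 CPM at 48 h, and the macrophage markers CD163 and CSF1R fell from a median sum of 29.3 to 8.55 CPM at 72 h. The T and NK cell markers CD3E, CD3G and KLRD1 went from a median sum of 3.44 to 7.63 CPM. The part of these markers' changes in the values below was not tested.

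All 38 small RNA genes passed the filter on low counts, but most were counted thinly. The median count per library was 4 for the lowest gene, 27 for the median gene and 5994 for the highest, and 27 of the 38 genes had a median under 50 reads. Their summed share of a library was 0.0193 ± 0.0050% at 0 h (SD, n = 7). The share stayed at 0.0196 ± 0.0075%, 0.0192 ± 0.0024% and 0.0199 ± 0.0028% over the next 3 time points and reached 0.0252 ± 0.0062% by 72 h, when 5 of 7 animals were above their own 0 h value. A single gene, the bta-mir-2887-2 copy ENSBTAG00000054661, held 71.0% of those reads, and the misc_RNA ENSBTAG00000048699 held 11.7%. Without the former the share was 0.00612% at 0 h and 0.00669% at 72 h.

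At 6 h, 1 of the 38 genes was upregulated and 5 were downregulated, where a call needed an FDR under 0.05 together with more than 1.5-fold change. Over all 14630 genes tested, 0.349% were called up and 0.185% down at that time. The members' calls grew to 1 up and 9 down at 24 h (background 0.725% and 0.95%), to 8 up and 16 down at 48 h (background 2.96% and 6.3%) and to 15 up and 19 down at 72 h (background 9.8% and 15.4%). Since these contrasts chose the genes, nothing is read from the distance to the background. The median log2 fold change of the 38 was -0.08, -0.15, -0.43 and -0.75 in that order of time, beside medians between -0.0048 and 0.014 over all genes tested.

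No gene was called in both directions. The 23 genes that fell were 16 of the 21 miRNAs, 6 of the 10 misc_RNAs and the sRNA, and the 15 that rose were 5 miRNAs, 4 misc_RNAs, all 4 snRNAs, the ribozyme and the scaRNA. Among the genes that rose, 14 of 15 had their largest fold change at 72 h, and 13 were first called at 48 or 72 h; among those that fell, 14 of 23 had it at 72 h, and 9 had already been called by 24 h. Values of the 7 animals did not overlap with those at 0 h for 8 of the rising and 8 of the falling genes at 72 h. At 6 h this held for no rising and 3 falling genes. The same contrasts chose the genes, and the share over all genes tested is not given, so nothing is read from these counts.

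**Figure D1:**
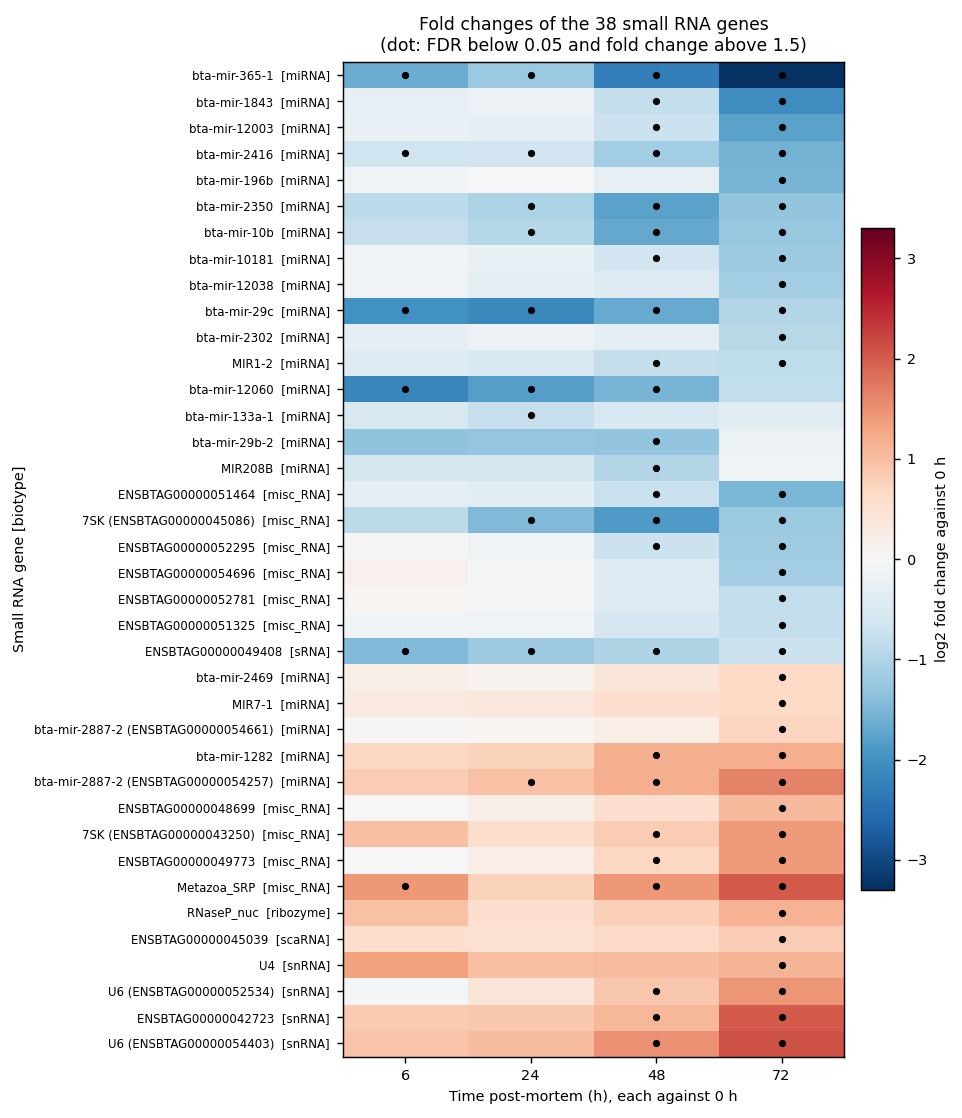
Log2 fold change of each of the 38 small RNA genes (rows, with biotype) at 6, 24, 48 and 72 h against 0 h (columns), with black dots where both limits of a call were met. The lower block of 15 rising genes holds every snRNA and deepens towards 72 h, whereas the upper block of 23 falling genes includes several that were darkest at 6 or 24 h, such as bta-mir-29c and bta-mir-12060.

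Of the 5 genes called down at 6 h, bta-mir-12060 and bta-mir-29c had the largest fold changes. bta-mir-29c is a miRNA known for targeting collagen and other matrix mRNAs, and the RefSeq annotation (ARS-UCD2.0) places bta-mir-29b-2 next to it. The level of bta-mir-29c in the 7 animals was 1.67 at the lowest, 3.20 at the median and 4.69 CPM at the highest at 0 h. It was 0.344, 0.727 and 1.45 CPM at 6 h and 0.513, 0.644 and 1.19 CPM at 24 h. All animals at 6 and 24 h lay below all animals at 0 h, and the difference from 0 h was largest at 24 h. The log2 fold change was -1.99 (SE 0.30) at 6 h, -2.13 (SE 0.29) at 24 h, -1.67 (SE 0.29) at 48 h and -0.97 (SE 0.27) at 72 h, each of them called.

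At 48 and 72 h the fold changes of bta-mir-29c from 0 h were smaller, although no step between consecutive time points after 6 h was called. At 48 h the lowest, median and highest values were 0.388, 0.880 and 1.85 CPM, and at 72 h they were 0.709, 1.08 and 4.03 CPM. The 4.03 CPM belonged to animal 103, the only animal above its own 0 h value. Between 6 and 72 h the log2 difference was 1.02 (SE 0.31), with animals 101 and 201 lower at 72 h than at 6 h and the others higher. Without the 72 h library of animal 103 the log2 fold change from 0 to 72 h was -1.31.

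The neighbour bta-mir-29b-2 was counted more thinly, with a median of 13 reads per library. Its lowest, median and highest values were 0.248, 0.579 and 1.10 CPM at 0 h, 0.0936, 0.148 and 0.633 CPM at 6 h, 0.0730, 0.224 and 0.616 CPM at 24 h, and 0.0554, 0.258 and 0.599 CPM at 48 h. These groups overlapped with 0 h at every time point. Its log2 fold changes were -1.32 (SE 0.44), -1.29 (SE 0.43) and -1.30 (SE 0.44) at 6, 24 and 48 h, of which that at 48 h was called, although not when animal 202 was left out. At 72 h the values were 0.101, 0.379 and 2.24 CPM with a log2 fold change of -0.18 (SE 0.39), animal 103 again being the highest. Without that library the log2 fold change at 72 h was -0.82.

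bta-mir-12060, which RefSeq places inside the glycolytic gene ALDOA, had 0.288, 0.360 and 1.04 CPM (lowest, median, highest) at 0 h and 0, 0.140 and 0.213 CPM at 6 h, with no overlap between the 2 groups. The values were 0.0560, 0.112 and 0.350 CPM at 24 h, 0.0742, 0.176 and 0.322 CPM at 48 h and 0.0702, 0.101 and 1.09 CPM at 72 h. Its log2 fold change was -2.14 (SE 0.45) at 6 h, -1.82 (SE 0.42) at 24 h, -1.52 (SE 0.43) at 48 h and -0.82 (SE 0.39) at 72 h, and the first 3 were called. Its counts were small, with a median of 7 reads per library, and the call at 6 h was lost when animal 107, whose 6 h library had no read, was left out. At 72 h animal 103 was again the highest, and without that library the log2 fold change at 72 h was -1.54.

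**Figure D2:**
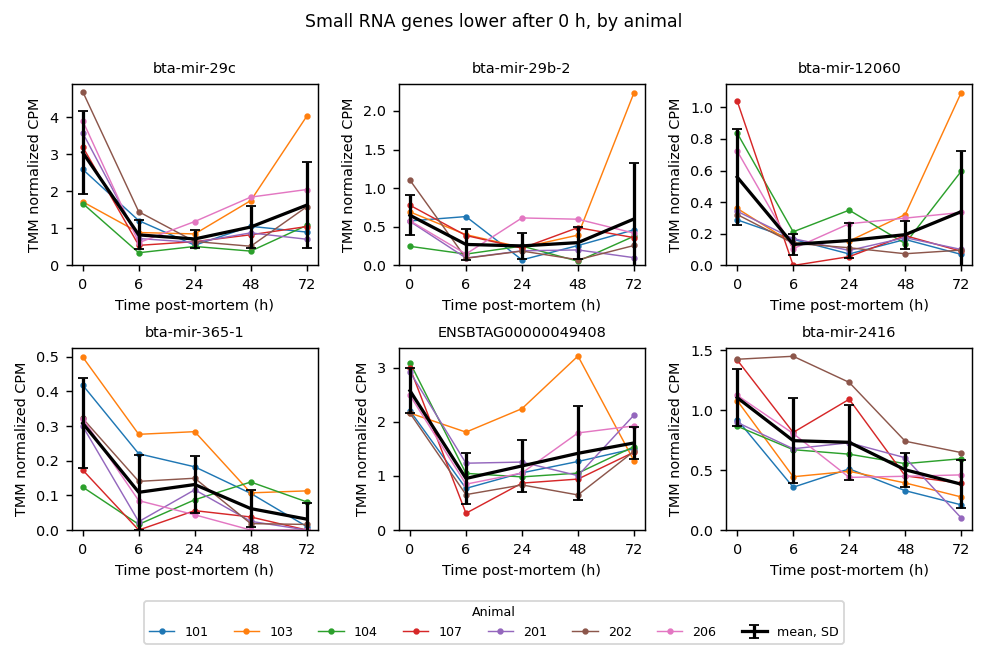
TMM normalized CPM (vertical axes, linear from 0) of 6 falling genes at 0, 6, 24, 48 and 72 h, 1 coloured line per animal, with the mean and SD of 7 animals in black (bars cut at 0). bta-mir-29c, bta-mir-29b-2 and bta-mir-12060 were low at 6 and 24 h and animal 103 was high in all 3 at 72 h, while bta-mir-365-1 and bta-mir-2416 went on down to 72 h.

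Other genes fell early and did not come back. bta-mir-365-1, which lies next to MIR193B in RefSeq, had 0.124, 0.321 and 0.499 CPM (lowest, median, highest) at 0 h, 0, 0.0848 and 0.276 CPM at 6 h and 0.0440, 0.116 and 0.284 CPM at 24 h. It reached 0, 0.0377 and 0.139 CPM at 48 h and 0, 0.0100 and 0.113 CPM at 72 h, where every animal was below every animal at 0 h. The log2 fold change was -1.64 (SE 0.38), -1.23 (SE 0.35), -2.28 (SE 0.42) and -3.27 (SE 0.46) from 6 to 72 h, all called. With a median of 4 reads per library and 5 libraries at 0 reads it was the most thinly counted of the 38; the call at 6 h was lost without animal 107 or 201 and that at 24 h without any 1 of 5 animals. Without animal 103 it failed the filter on low counts and gave no value.

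bta-mir-2416, which overlaps the cytoskeletal linker gene MACF1 in RefSeq, had 0.867, 1.08 and 1.43 CPM at 0 h, 0.358, 0.679 and 1.45 CPM at 6 h and 0.440, 0.633 and 1.23 CPM at 24 h. It went on to 0.329, 0.452 and 0.742 CPM at 48 h and 0.101, 0.39 and 0.647 CPM at 72 h, and these last 2 groups lay wholly below 0 h. Its log2 fold changes were -0.66 (SE 0.17), -0.64 (SE 0.17), -1.16 (SE 0.19) and -1.57 (SE 0.19), all called. The calls at 6 and 24 h were each lost on leaving out 1 of several single animals, 101 and 103 among them.

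The single sRNA, ENSBTAG00000049408, was also called at all 4 time points and was furthest from 0 h at 6 h. It had 2.16, 2.49 and 3.10 CPM at 0 h and 0.310, 0.848 and 1.81 CPM at 6 h, without overlap. The values rose to 0.834, 1.06 and 2.25 CPM at 24 h, 0.649, 1.05 and 3.22 CPM at 48 h and 1.28, 1.5 and 2.13 CPM at 72 h. Animal 103 was the highest at 6, 24 and 48 h. The log2 fold change shrank from -1.46 (SE 0.23) to -1.19 (SE 0.22), -0.99 (SE 0.22) and -0.71 (SE 0.22), and at 72 h all 7 animals still lay below the 0 h group. Without the 72 h library of animal 103 the value at 72 h was -0.55, inside the 1.5-fold limit, so that call ended.

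bta-mir-10b and bta-mir-2350 were called from 24 h on and were lowest at 48 h. bta-mir-10b had 0.279, 0.466 and 0.598 CPM at 0 h, 0.0614, 0.229 and 0.655 CPM at 6 h, 0.0879, 0.336 and 0.424 CPM at 24 h, 0.0822, 0.113 and 0.402 CPM at 48 h and 0.0271, 0.240 and 0.404 CPM at 72 h, so that the groups overlapped throughout. Its log2 fold changes were -0.76 (SE 0.29), -0.94 (SE 0.29), -1.69 (SE 0.33) and -1.25 (SE 0.30), and the call at 24 h was lost whichever animal was left out. bta-mir-2350, inside the membrane-shaping gene BIN1 in RefSeq, had 0.589, 1.01 and 1.53 CPM at 0 h, 0.311, 0.582 and 0.798 CPM at 6 h, 0.280, 0.413 and 0.703 CPM at 24 h, 0.189, 0.258 and 0.449 CPM at 48 h and 0.150, 0.251 and 0.791 CPM at 72 h. Only the 48 h group lay wholly below 0 h. Its log2 fold changes were -0.87 (SE 0.24), -1.04 (SE 0.24), -1.78 (SE 0.27) and -1.31 (SE 0.25), called from 24 h on.

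The muscle miRNA genes moved less. MIR1-2, which RefSeq places in MIB1 beside MIR133A-2, had 1.52, 2.33 and 4.04 CPM at 0 h, 1.29, 1.93 and 3.65 CPM at 6 h, 1.35, 1.86 and 3.08 CPM at 24 h, 0.898, 1.55 and 2.36 CPM at 48 h and 0.691, 1.21 and 3.74 CPM at 72 h. All 7 animals were lower at 72 h than at 0 h, although the groups overlapped. Its log2 fold changes were -0.42 (SE 0.19), -0.49 (SE 0.19), -0.79 (SE 0.20) and -0.85 (SE 0.20), called at 48 and 72 h. bta-mir-133a-1 belongs to the other cluster of this family, next to MIR1-1, and was called at 24 h alone.

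The levels of bta-mir-133a-1 were 0.721, 1.13 and 3.11 CPM at 0 h, 0.388, 0.813 and 1.84 CPM at 6 h, 0.308, 0.802 and 1.51 CPM at 24 h, 0.599, 0.787 and 1.74 CPM at 48 h and 0.433, 0.879 and 2.13 CPM at 72 h. Its log2 fold changes were -0.53 (SE 0.20), -0.77 (SE 0.20), -0.54 (SE 0.20) and -0.38 (SE 0.19), and the call at 24 h was lost without animal 104 or 201. The groups overlapped at all times. MIR208B, which lies in the slow myosin gene MYH7, had 0.241, 0.490 and 0.685 CPM at 0 h, 0, 0.393 and 0.440 CPM at 6 h, 0.168, 0.308 and 0.465 CPM at 24 h, 0.117, 0.151 and 0.610 CPM at 48 h and 0.152, 0.356 and 0.721 CPM at 72 h. It was called at 48 h alone, where the log2 fold change was -0.96 (SE 0.34), and at 72 h the value was -0.13 (SE 0.31). That call was lost without animal 101 or 201.

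The remaining falling miRNAs were called at 48 and 72 h or at 72 h alone. bta-mir-1843 went from 0.419 ± 0.042 CPM at 0 h to 0.0974 ± 0.0516 CPM by 72 h (SD, n = 7), with a log2 fold change of -2.05 (SE 0.26), and bta-mir-12003, inside HAPSTR1, from 2.34 ± 0.55 to 0.663 ± 0.339 CPM, -1.76 (SE 0.19). bta-mir-10181, inside the elongin gene ELOA, went from 2.18 ± 0.24 to 0.960 ± 0.367 CPM, -1.21 (SE 0.17). In these 3 genes the 72 h group did not overlap with 0 h, and each was also called at 48 h. bta-mir-196b, bta-mir-12038 and bta-mir-2302 were called at 72 h alone, with log2 fold changes of -1.55 (SE 0.28), -1.13 (SE 0.25) and -0.91 (SE 0.20) and overlapping groups. bta-mir-196b, from the HOXA cluster, had values of -0.13 (SE 0.24) at 6 h and -0.27 (SE 0.24) at 48 h before it.

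Of the 5 rising miRNA genes, both copies of bta-mir-2887-2 matched a single RefSeq gene by symbol. That gene overlaps a pseudogene and lies next to a ribosomal RNA gene. How reads were placed between these copies was not tested. The copy ENSBTAG00000054257 had 0.225, 0.368 and 0.548 CPM (lowest, median, highest) at 0 h, 0.281, 0.573 and 1.40 CPM at 6 h, 0.399, 0.766 and 1.04 CPM at 24 h, 0.465, 0.810 and 1.36 CPM at 48 h and 0.598, 1.21 and 1.56 CPM at 72 h. Only the 72 h group lay wholly above 0 h. The log2 fold changes were 0.83 (SE 0.23), 0.96 (SE 0.22), 1.2 (SE 0.23) and 1.64 (SE 0.22), called from 24 h on, although the call at 24 h was lost without animal 201. The abundant copy ENSBTAG00000054661 went from 126 ± 42 to 203 ± 66 CPM by 72 h, with a log2 fold change of 0.70 (SE 0.18) that was 0.48 and no longer called without animal 201, and at 0 h animal 101 stood apart at 220 CPM against at most 118 CPM in the other 6.

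bta-mir-1282, which overlaps SERF2, rose from 0.123 ± 0.042 to 0.277 ± 0.080 CPM by 72 h without overlap, with a log2 fold change of 1.2 (SE 0.26), and was also called at 48 h. bta-mir-2469, which overlaps TOPORS, rose in all 7 animals from 3.15 ± 0.38 to 5.14 ± 1.02 CPM, 0.66 (SE 0.08). MIR7-1 rose from 0.501 ± 0.133 to 0.787 ± 0.230 CPM, 0.67 (SE 0.16), in 6 of 7 animals. Both were called at 72 h alone. The change of bta-mir-2469 was 0.58 without animal 202 and that of MIR7-1 was 0.58 without animal 101, just under the 1.5-fold limit.

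All 4 snRNA genes were called up at 72 h, but their courses before it were unlike. At 6 h the log2 fold change was 1.32 (SE 0.48) for U4 and -0.07 (SE 0.33) for the U6 gene ENSBTAG00000052534, neither of them called. ENSBTAG00000042723 went from 0.250 ± 0.128 to 0.947 ± 0.247 CPM by 72 h, with a log2 fold change of 2.01 (SE 0.29), and the U6 gene ENSBTAG00000054403 from 0.102 ± 0.028 to 0.465 ± 0.266 CPM, 2.09 (SE 0.31). The U6 gene ENSBTAG00000052534 went from 0.262 ± 0.127 to 0.647 ± 0.147 CPM, 1.45 (SE 0.28). In these 3 genes all 7 animals at 72 h lay above all 7 at 0 h, and each was also called at 48 h, the gene ENSBTAG00000052534 not without animal 107. U4 had 0.0775 ± 0.0698 CPM at 0 h and 0.189 ± 0.134 CPM at 72 h, 1.12 (SE 0.48), and its call at 72 h was lost without animal 103, 201 or 202. It had a median of 7 reads per library, and without animal 107 it failed the filter on low counts and gave no value. Of the 16 alternatives that gave it a value, 8 kept the call. U6 and 7SK have many near-identical copies in mammalian genomes, so the place of their reads is uncertain.

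The scaRNA ENSBTAG00000045039 rose from 0.427 ± 0.167 to 0.820 ± 0.495 CPM by 72 h, with a log2 fold change of 0.84 (SE 0.27), in 6 of 7 animals, and the call was lost without animal 201. RNaseP_nuc, the catalytic RNA of nuclear RNase P, rose from 0.315 ± 0.138 to 0.746 ± 0.286 CPM, 1.14 (SE 0.34), also in 6 of 7 animals.

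Metazoa_SRP, a signal recognition particle RNA gene, was the only member called up at 6 h. It had 0.276, 0.375 and 0.641 CPM (lowest, median, highest) at 0 h, 0.315, 0.657 and 3.85 CPM at 6 h, 0.440, 0.616 and 0.826 CPM at 24 h, 0.578, 1.07 and 2.15 CPM at 48 h and 0.962, 1.57 and 2.72 CPM at 72 h. The 3.85 CPM at 6 h was animal 101, and the other 6 animals reached 1.37 CPM at most. The log2 fold changes were 1.42 (SE 0.39) at 6 h, 0.76 (SE 0.40) at 24 h, 1.42 (SE 0.39) at 48 h and 2.03 (SE 0.38) at 72 h, where the group lay wholly above 0 h. Without the 6 h library of animal 101 the value at 6 h was 0.73 and was no longer called, and leaving out any 1 of 6 animals at all time points also ended that call, whereas those at 48 and 72 h were 1.43 and 1.98.

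The same 6 h library was high in several of these RNAs. The 7SK gene ENSBTAG00000043250 stood at 5.42 CPM in it against at most 2.15 CPM in the other 6 animals, RNaseP_nuc at 1.93 against at most 0.763 CPM and U4 at 0.578 against at most 0.234 CPM. Animal 101 was the highest of the 7 animals at 6 h in 13 of the 38 genes, among them 9 of the 15 rising ones. Other libraries had similar counts. Animal 202 was the highest at 72 h in 15 genes, 14 of them falling, and animal 206 at 48 h in 12, 8 of them rising. The share over all genes tested is not given, so nothing is read from these counts. Without the 6 h library of animal 101 the log2 fold change at 6 h was 0.47 for 7SK in place of 1.0, 0.49 for RNaseP_nuc in place of 0.98 and 0.65 for U4 in place of 1.32. These genes and this library were picked after their values were seen, and what set the library apart was not tested.

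The 2 genes annotated as 7SK went opposite ways. ENSBTAG00000043250 rose from 0.908 ± 0.247 at 0 h to 2.41 ± 1.10 CPM by 72 h, with a log2 fold change of 1.39 (SE 0.31), and was called at 48 and 72 h. The call at 48 h was lost without animal 103, 107 or 206. ENSBTAG00000045086 had 0.248, 0.788 and 2.07 CPM (lowest, median, highest) at 0 h, 0.229, 0.413 and 1.92 CPM at 6 h, 0.109, 0.365 and 1.01 CPM at 24 h, 0.107, 0.299 and 0.779 CPM at 48 h and 0.138, 0.293 and 2.18 CPM at 72 h. The groups overlapped at every time point, with animal 202 the highest at all 5. The log2 fold changes of ENSBTAG00000045086 were -0.86 (SE 0.31), -1.45 (SE 0.32), -1.87 (SE 0.34) and -1.23 (SE 0.31), called from 24 h on.

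**Figure D3:**
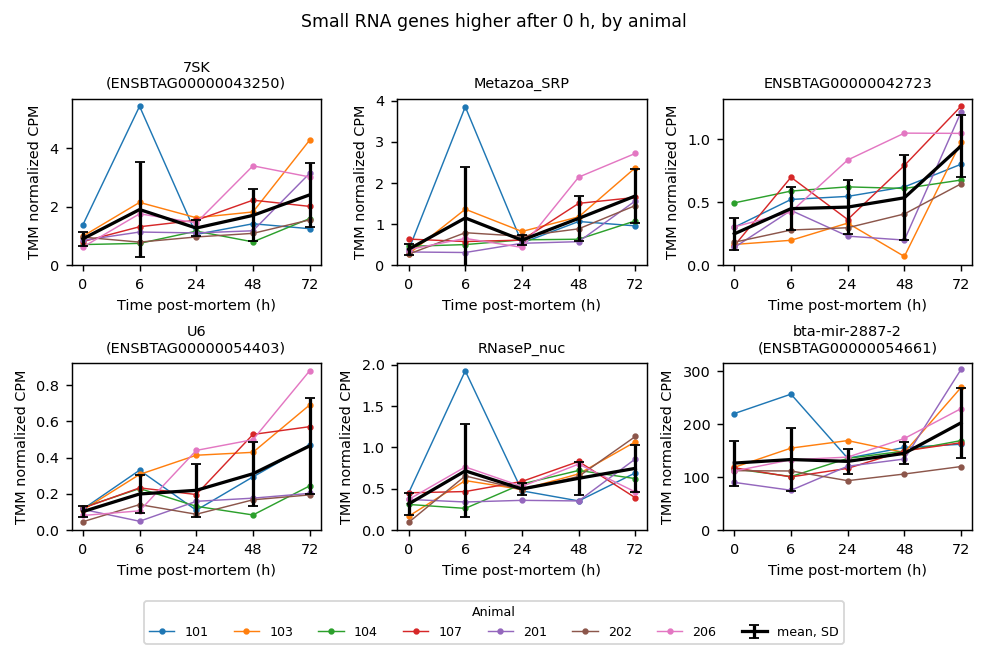
TMM normalized CPM (vertical axes, linear from 0) of 6 rising genes at 0, 6, 24, 48 and 72 h, 1 coloured line per animal, with the mean and SD of 7 animals in black (bars cut at 0). Animal 101 stands out at 6 h in the 7SK gene (5.42 CPM), Metazoa_SRP (3.85 CPM) and RNaseP_nuc (1.93 CPM), and the 72 h values of ENSBTAG00000042723, Metazoa_SRP and U6 all lie above those at 0 h.

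The other misc_RNA genes have no symbol. ENSBTAG00000048699 rose from 18.0 ± 1.6 to 38.7 ± 9.7 CPM by 72 h, with a log2 fold change of 1.08 (SE 0.10), and ENSBTAG00000049773 from 0.450 ± 0.108 to 1.2 ± 0.38 CPM, 1.40 (SE 0.17), both without overlap. The latter was also called at 48 h. ENSBTAG00000051464 fell from 0.846 ± 0.223 to 0.299 ± 0.186 CPM, -1.52 (SE 0.23), with a call at 48 h that was lost without animal 206. ENSBTAG00000052295 fell from 2.05 ± 0.38 to 0.979 ± 0.369 CPM, -1.17 (SE 0.16), and was also called at 48 h, and ENSBTAG00000054696 fell from 1.28 ± 0.14 to 0.622 ± 0.265 CPM, -1.16 (SE 0.16). ENSBTAG00000052781 and ENSBTAG00000051325 had smaller log2 fold changes of -0.80 (SE 0.13) and -0.79 (SE 0.13) at 72 h. All 5 of these falling genes were lower in all 7 animals.

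Near the limits of the choice, Metazoa_SRP at 6 h was just inside the FDR limit with a log2 fold change of 1.42, and bta-mir-2887-2 (ENSBTAG00000054257) at 6 h was just outside with 0.83. On the fold change limit, bta-mir-10181 at 48 h was just inside with -0.63 and ENSBTAG00000048699 at 48 h just outside with 0.56. Without animal 101, 107 or 206 bta-mir-10181 was outside too.

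Differences between the animals were not used to choose the genes and were tested in the same edgeR quasi-likelihood fit, with the 5 time points of an animal as its repeats. Of the 38 genes, 27 (71.1%) differed between animals at an FDR below 0.05, against 82.5% of all 14630 genes tested. The range between the highest and the lowest animal, on the log2 scale, was 1.0 for the median member and 0.549 for the median of all genes, and it ran from 0.34 for ENSBTAG00000052781 to 2.7 for the 7SK gene ENSBTAG00000045086. The members' counts were low, and the part of counting error in this range was not tested.

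The smallest adjusted p-value in that edgeR test among the members was that of bta-mir-133a-1 (FDR 3.57e-07), where animal 201 was highest and animal 104 lowest with a log2 range of 1.69. The 7SK gene ENSBTAG00000045086 followed (edgeR FDR 5.95e-07), with animal 202 at the top and animal 104 at the bottom. In MIR1-2 the edgeR FDR was 0.000202 with animal 202 highest and animal 103 lowest, and in bta-mir-10b it was 0.000306 with the same 2 animals at the ends. For bta-mir-29c, bta-mir-29b-2 and bta-mir-12060, the log2 ranges were 1.35, 1.72 and 1.72 and the edgeR FDRs 0.0234, 0.0257 and 0.0104. Without the 72 h library of animal 103 the edgeR FDR of bta-mir-29b-2 was 0.239 and those of bta-mir-29c and bta-mir-12060 were 0.0474 and 0.00794. Without animal 103, 104 or 201, bta-mir-29b-2 also missed the threshold (edgeR FDR 0.258, 0.0635 and 0.0532), as bta-mir-29c did without animal 104 (0.237). Metazoa_SRP (edgeR FDR 0.185), RNaseP_nuc (0.691), bta-mir-1843 (0.534) and MIR208B (0.141) were among the 11 genes that did not pass.

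Deviations of each library from its animal and time point means, in log2 CPM, give a view of the members that their choice did not use. Across the 703 pairs of members the Pearson correlation of these deviations over the 35 libraries had a median of 0.045 and ran from -0.739 to 0.755, with 27 pairs above 0.5. The libraries share depth and RNA quality between genes, so the values are given as a description. The neighbours bta-mir-29c and bta-mir-29b-2 had r = 0.680, and r = 0.596 over the 34 libraries left without the 72 h library of animal 103. bta-mir-29c and bta-mir-12060, which are not neighbours, had r = 0.737, and 0.660 without that library.

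Among the rising genes, the 7SK gene ENSBTAG00000043250 and Metazoa_SRP had r = 0.755, which went to 0.532 without the 6 h library of animal 101. RNaseP_nuc and Metazoa_SRP had r = 0.574, and 0.351 without it. The 2 copies of bta-mir-2887-2 had r = 0.662 with that library and 0.560 without it. The most negative value, -0.739, was between the rising misc_RNA ENSBTAG00000048699 and the falling bta-mir-12003.

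**Figure D4:**
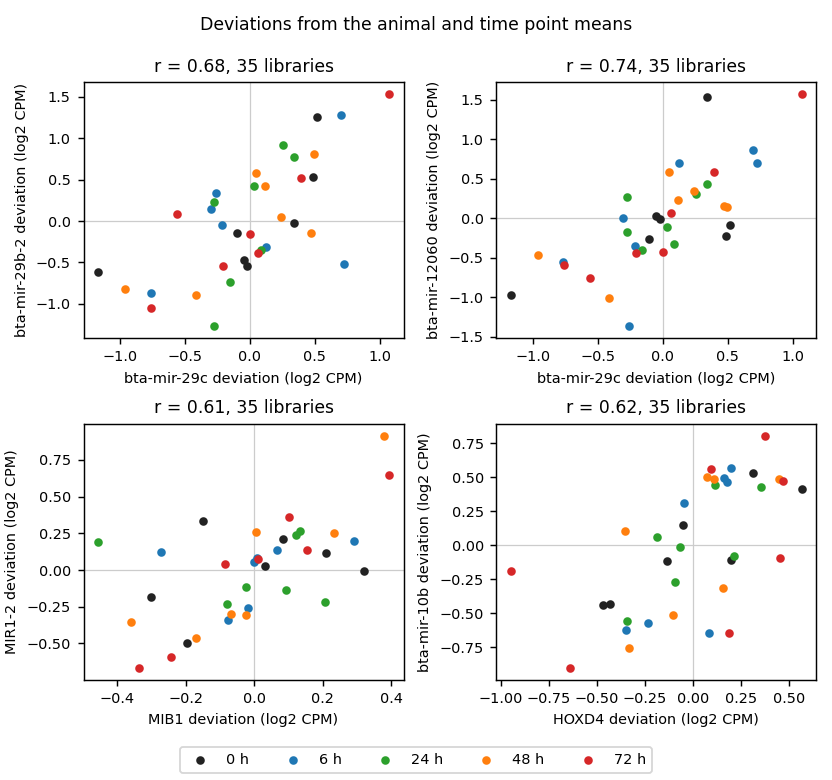
Deviations from the animal and time point means (both axes in log2 CPM) of 4 pairs of genes, 1 point per library coloured by time point, 35 points in each panel. In all 4 pairs, bta-mir-29c with bta-mir-29b-2 (r = 0.680) and with bta-mir-12060 (r = 0.737), MIR1-2 with MIB1 (r = 0.608) and bta-mir-10b with HOXD4 (r = 0.619), libraries high in one gene tended to be high in the other. The 4 pairs are a selection and do not stand for the rest. Over the 703 pairs of members the median r was 0.045. For coding neighbours not drawn, r ran from -0.354 (RPL11 with bta-mir-10181) to 0.565 (HOXA9 with bta-mir-196b).

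Protein-coding genes that overlap or adjoin a miRNA member could be set beside it where the file's identifier was paired with a name, which held for genes listed as DE only, so these fold changes are also descriptions. Overlap and adjacency were taken by position alone, without regard to strand, so a shared transcript is not implied for any pair. MIB1, a ubiquitin ligase of Notch signalling that overlaps MIR1-2, went from 42.7 ± 7.2 to 16.8 ± 5.1 CPM by 72 h, with a log2 fold change of -1.37 (SE 0.13), beside -0.85 for MIR1-2, and the deviations of the pair had r = 0.608. HOXD4, a homeobox gene that overlaps bta-mir-10b, had log2 fold changes of -0.59, -0.66, -0.60 and -0.63 (SE 0.19 to 0.20) at 6, 24, 48 and 72 h, beside -0.76, -0.94, -1.69 and -1.25 for the miRNA, with r = 0.619. ELOA had -0.09, -0.23, -0.71 and -1.39 (SE 0.14 to 0.15), beside -0.09, -0.25, -0.63 and -1.21 for bta-mir-10181 inside it, with r = 0.505.

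In the remaining pairs, RPL11, the ribosomal protein gene next to bta-mir-10181, rose by 0.61 (SE 0.05) at 72 h with r = -0.354. HOXA10 and HOXA9, on either side of bta-mir-196b, had log2 fold changes of 0.05 (SE 0.10) and 0.22 (SE 0.13) at 48 h and -1.84 (SE 0.11) and -0.77 (SE 0.13) at 72 h, and bta-mir-196b too was called only at 72 h, with r = 0.516 and 0.565. SERF2 rose by 0.81 (SE 0.09) at 72 h beside 1.2 for bta-mir-1282, with r = 0.375. MYH6, next to MIR208B, rose by 0.73 (SE 0.15) at 72 h while MIR208B was at -0.13, with r = -0.066. How the counting treated reads lying over both a miRNA gene and a gene that overlaps it was not tested.

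**Figure D5:**
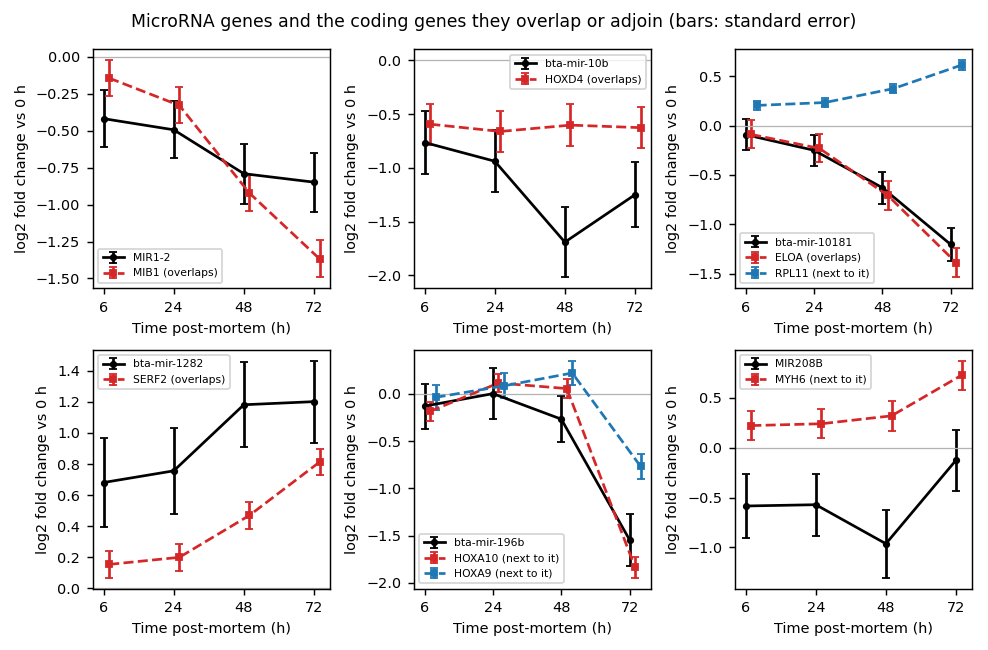
Log2 fold change against 0 h (vertical axes, bars are standard errors) at 6, 24, 48 and 72 h for 6 miRNA genes (black) and the protein-coding genes they overlap or adjoin (red and blue). ELOA and bta-mir-10181 run together to -1.39 and -1.21 at 72 h, HOXA10 and bta-mir-196b drop between 48 and 72 h, and MYH6 and MIR208B run apart.

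Genes for proteins that make, carry or degrade these RNAs were read from lists of 141 genes, of which 26 could be paired with an identifier, again only through the list of DE genes; the others were not analysed here. None of the 26 met both limits of a call at 6 or 24 h by edgeR, DESeq2 or limma voom, although 3 and 11 of them had an unadjusted edgeR p under 0.05 there. By edgeR, SNAPC4 passed the FDR limit at 6 h (FDR 0.0158) and 24 h (FDR 0.00293), and SNRPD2 and SNRPD3 passed it at 24 h (FDR 0.0317 and 0.0368). These changes were upward and under the 1.5-fold limit. At 48 h 7 were down, and at 72 h 9 were up and 17 down, beside the same background shares as above. Because only genes listed as DE could be paired, nothing is read from these counts or their distance to the background. In the miRNA pathway DICER1 went from 71.6 ± 11.4 to 30.9 ± 3.0 CPM by 72 h, with a log2 fold change of -1.22 (SE 0.12). AGO4, AGO2 and the export receptor XPO5 had values of -1.80 (SE 0.17), -0.70 (SE 0.11) and -0.77 (SE 0.09). DICER1 and AGO4 were also called at 48 h, and none of the 4 was called at 6 h. Any link between these changes and the counts at the miRNA genes was not tested.

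Among decay factors the 5′ exonuclease XRN1 fell by 1.47 (SE 0.13) on the log2 scale at 72 h, the terminal uridylyl transferase TUT4 by 0.81 (SE 0.11) and the nuclear exosome helicase MTREX by 0.80 (SE 0.08), while the exosome subunit EXOSC4 rose by 0.66 (SE 0.07). Of 26 listed genes for Sm, LSm and related proteins, the Sm and LSm proteins forming rings on snRNAs, 6 had an identifier here. LSM7 rose by 0.96 (SE 0.09), SNRPG by 0.88 (SE 0.09) and SNRPD2 by 0.88 (SE 0.07) at 72 h, with SNRPD3 and SNRPD1 at 0.85 (SE 0.06) and 0.69 (SE 0.06), whereas GEMIN5, which helps to load them, was at -0.78 (SE 0.09). For snRNA synthesis SNAPC4 was at 0.69 (SE 0.07) and the Integrator subunit INTS2 at -0.76 (SE 0.12).

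Among genes for protein partners of the other RNAs, LARP7, which binds 7SK, rose by 0.85 (SE 0.09) at 72 h and CCNT1, the cyclin of P-TEFb, fell by 1.10 (SE 0.13). The signal recognition particle protein SRP9 was at -0.79 (SE 0.10) while Metazoa_SRP was at 2.03, and of the RNase P proteins RPP21 was at 0.70 (SE 0.07) and RPP40 at -1.26 (SE 0.12). U6, 7SK, signal recognition particle RNA and RNase P RNA are made by RNA polymerase III, and 4 of 23 listed genes for its subunits and factors had an identifier here. The subunit gene POLR3G was at -0.80 (SE 0.13), BDP1 of the factor TFIIIB at -0.89 (SE 0.11), and GTF3C4 and GTF3C3 of TFIIIC at -1.24 (SE 0.15) and -0.61 (SE 0.07).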

How the data were processed

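The authors trimmed reads with Trimmomatic 0.39, checked them with FastQC 0.11.8, mapped them to ARS-UCD1.2 with STAR 2.7.0f and counted them per Ensembl gene with featureCounts 1.6.4. The deposited values are raw counts per gene, not normalized. The deposited table is named for the reverse strand and the methods call its reads sense-strand reads, although the option they print is the unstranded one. Gene names and biotypes came from the study's list of DE genes, and neighbours from RefSeq (ARS-UCD2.0), in which 20 of the 21 miRNA members matched a gene. 1 further small RNA gene of that list is not reported here.

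Counts were fitted in edgeR 4.0.16 (R 4.3.3) with filterByExpr (minimum count 10, time point as group), TMM factors, animal and time point as terms, and quasi-likelihood tests, adjusted by Benjamini-Hochberg over 14630 genes; SE is the absolute log2 fold change over the square root of F. Calls needed both FDR under 0.05 and more than 1.5-fold change. Differences between animals were an F-test of the 6 animal terms. The fits were tested on simulated data. Total counts were 20568418 to 104275821 per library. Animal numbers mark the same carcass, and deviations from the time point means had a median correlation of 0.578 between libraries of an animal (70 pairs) and -0.105 between animals (420 pairs), so animal was kept as the block. The 7 animals are separate individuals.

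The members, the gene lists and the marker lists were chosen with earlier results of these data known. Every member is named. The lowest, median and highest values of the 7 animals are given for members called at 3 or 4 time points, for the mir-29 and mir-1/mir-133 genes and for MIR208B. Up to 3 genes of largest fold change are given per protein list, or all of a named complex. Alternatives were DESeq2 1.42.0, limma voom 3.58.1, an edgeR likelihood ratio test, RLE factors, total counts, no filter, 1 CPM in at least 7 samples, no block, 14 samples only, FDR only, glmTreat, counts thinned to 20568418, each animal left out, and 2 single libraries left out, the last chosen after seeing the data. The authors' own fold changes and p-values were not used.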

Additional observations from a re-analysis of the deposited data

Results flagged for a closer look

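In 14 of 195 groups of 7 animals, 1 animal lay far from the others by Dixon's test, where chance alone flags about 1 group in 20. Animal 202 was the high one for the 7SK gene ENSBTAG00000045086 at 6 h (1.92 CPM) and 72 h (2.18 CPM), and the low one for bta-mir-2887-2 (ENSBTAG00000054257) at 72 h (0.598 CPM). Animal 101 was high for bta-mir-2887-2 (ENSBTAG00000054661) at 0 h (220 CPM) and for the share of counts taken by the 38 genes at 0 h (0.0303%) and 6 h (0.0353%). At 0 h animal 104 was low for 4 misc_RNA genes, ENSBTAG00000051325 (3.07 CPM), ENSBTAG00000051464 (0.403 CPM), ENSBTAG00000052781 (2.48 CPM) and ENSBTAG00000054696 (0.991 CPM). Animal 107 was low at 6 h for bta-mir-12060 (0 CPM) and the U6 gene ENSBTAG00000052534 (0.0388 CPM), animal 103 was high at 24 h for the sRNA ENSBTAG00000049408 (2.25 CPM), and animal 206 was low at 24 h for ENSBTAG00000051325 (1.89 CPM).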

How the results depend on the processing

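No called fold change of a member changed sign under an alternative that gave it a value. Of the 74 calls of a member at a time point, 74 were kept with DESeq2, 73 with limma voom, 68 with total counts and 55 without the animal block, and 52 were kept in each of the 7 fits that left out 1 animal. The calls of bta-mir-365-1 at 48 and 72 h were not lost but could not be tested without animal 103, since the gene then failed the filter on low counts. The number called up at 6 h (1 as reported) was 2 with DESeq2, the likelihood ratio test, RLE factors, the 1 CPM filter and the 14 samples of 2 time points, and 0 with limma voom, total counts, no filter, glmTreat (a test against the 1.5-fold limit) and thinned counts. The number called up at 24 h (1) was 2 with the likelihood ratio test, 3 with the 14 samples and 0 with glmTreat. Without the animal as a block, the members called were 0 up and 2 down at 6 h and 0 up and 2 down at 24 h; at 48 and 72 h the counts stayed within 1.5 times. The 1 CPM filter tested fewer members and gave 3 down at 6 h, 4 down at 24 h, 3 up and 7 down at 48 h, 6 up and 11 down at 72 h, and 14 that differed between animals. Thinned counts gave 3 down at 6 h, 4 down at 24 h and 15 that differed between animals, also with fewer members tested. glmTreat gave 1 down at 6 h, 1 down at 24 h, 0 up and 6 down at 48 h, and 9 up and 12 down at 72 h. Leaving out 1 animal or 1 library moved the members called over 0 to 2 up and 2 to 6 down at 6 h, 0 to 1 up at 24 h and 6 to 13 up at 48 h (13 without animal 101). For the protein lists, FDR alone gave 1 up at 6 h, 3 up at 24 h, and 9 up and 17 down at 48 h, glmTreat gave 0 down at 48 h and 5 up and 10 down at 72 h, total counts gave 5 up and 17 down at 72 h in place of 9 and 17, and leaving out 1 animal gave 0 to 1 up at 48 h (1 without animal 202). With total counts the median log2 fold change of all genes at 72 h was -0.16 in place of 0.014, and the members called then were 11 up and 20 down. Beyond the construction of each alternative, the cause was not tested. Depth limits the members: 13 of the 38 had a median under 20 reads per library, and 4 had a library at 0 reads.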
